A study of Mus musculus with 12 samples.

Results

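Of 10 mouse genes for secreted inflammatory messengers and their synthesis, Ccl2, Ccl7, Ccl5, Cxcl1, Cxcl5, Cxcl12, Csf1, Il6, Lif and Ptgs2, 9 were measured by 12 array probes in 3T3-L1 preadipocytes before and after hormonal induction of adipogenesis. Given these genes, the probes followed annotation alone: each non-control probe whose transcript accession belongs to one of them was taken, 12 of 41174 in all. The genes themselves were chosen with earlier results of these data known. Lif had no probe under its accessions and has no value here. The genes were grouped as fibroblast mRNAs that dexamethasone represses. With spike-in scaling no probe was lower at 6 h in either fraction. In polysomal RNA 9 of 12 were called higher, where 19.2% of all probes were. Dexamethasone was given only as part of a mixture, so its own effect on these mRNAs was not tested.

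3T3-L1 is an established line of mouse embryonic fibroblasts that can be turned into adipocytes. Confluent cells were harvested untreated (0 h, medium with newborn bovine serum) or 6 h after exposure to a mixture of 0.5 mM isobutylmethylxanthine (IBMX), 1 µM dexamethasone and 5 µg/ml insulin in medium with fetal bovine serum. Lysates were sedimented through sucrose gradients in the presence of cycloheximide, and the RNA of each gradient was combined into a non-polysomal pool (fractions 5 to 7) and a polysomal pool (fractions 9 to 11). The 4 groups (0 h non-polysomal, 0 h polysomal, 6 h non-polysomal, 6 h polysomal) had 3 biological replicates each, 12 one-colour arrays in all. The agents and the serum were changed together, so their parts cannot be told apart, and no sample had dexamethasone alone.

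Ccl2 and Ccl7 are chemokines that draw monocytes through the receptor Ccr2, Ccl5 draws T cells and monocytes, Cxcl1 and Cxcl5 draw neutrophils through Cxcr2, and Cxcl12 holds progenitor cells and leukocytes through Cxcr4. Il6 and Lif are cytokines that signal through the shared receptor chain Il6st, Csf1 is the growth factor of macrophages, and Ptgs2 is the inducible cyclooxygenase that makes the precursor of the prostaglandins. In fibroblasts many of these genes are switched on by NF-kB, AP-1, C/EBP factors or cAMP, glucocorticoids are known to restrain them, and many of their mRNAs are short-lived. IBMX blocks phosphodiesterases and so raises cAMP, dexamethasone activates the glucocorticoid receptor, and insulin activates growth signalling.

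The promoters of the genes were searched for short motifs of these factors, on both strands and by exact match, in the RefSeq windows of 250 bases before to 50 bases after the start (build GRCm38.p6), which covered 6 of the 10 genes: Cxcl1, Cxcl12, Csf1, Il6, Lif and Ptgs2. The NF-kB motif GGNNTTNCC was in 5 of the 6 windows and in 16.0% of all 32851 promoter windows. The cAMP response element TGACGTCA was in 0 of the 6 and in 1.79% of all windows, and its core TGACG, which lies inside it, was in 4 of the 6 and in 20.8%. The AP-1 motif TGANTCA was in 2 of the 6 and in 7.81% of all windows, the C/EBP motif TTGCNNAA in 2 and in 10.8%, and the TATA box TATAAA in 0 and in 13.6%. A match describes these letters only. Stretches of 30 bases around matches of 4 genes are shown because these genes mark the range of the responses below, from Il6 with the largest polysomal change to Ptgs2 with the smallest. Capitals mark the matches to NF-kB, except in the second Il6 line, where they mark the core of the cAMP response element and the C/EBP motif, and in the second Ptgs2 line, where they mark the C/EBP motif. All lines read 5′ to 3′ on the strand of the gene.

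Il6, NF-kB, chr5:30013061-30013090, plus strand: atcaaatgtgGGATTTTCCcatgagtctca
Il6, core of the cAMP response element and C/EBP, chr5:30012972-30013001, plus strand: taaacgaCGTCAcaTTGTGCAAtcttaata
Cxcl1, NF-kB, chr5:90891155-90891184, plus strand: gGGAAACACCctgtactccgGGAATTTCCc
Csf1, NF-kB, chr3:107760604-107760633, minus strand: gggccttgagGGAAAGTCCctaggggccag
Ptgs2, NF-kB, chr1:150099999-150100028, plus strand: gtgggggttgGGGAAAGCCtaagcggaaag
Ptgs2, C/EBP, chr1:150099951-150099980, plus strand: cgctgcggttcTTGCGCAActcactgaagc

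Cxcl1 held 2 matches to the NF-kB motif within this stretch, and Il6, Csf1 and Ptgs2 held 1 each. Whether these matches bear on the size of a response was not tested.

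How deeply an array measured is given by its signals. Their 75th percentile, as processed intensities, was 241 to 281 on the non-polysomal and 426 to 567 on the polysomal arrays, and 20366 probes were well above background on all 12 arrays, among them all 12 probes of the cytokine, chemokine and Ptgs2 genes. Replicates had a median SD of 0.098 on the log2 scale. The 3 arrays of the 6 h polysomal group stood apart in their spike-in signals, which were used for scaling: their mean spike-in offset was -0.35 ± 0.14 (SD, n = 3), against 0.10 to 0.14 in the other groups, and the 5 dimmest spike-in transcripts were lower there by a mean log2 difference of -0.83 and the 5 brightest by -0.09. With this scaling the median change of all probes from 0 h to 6 h was 0.54 in polysomal RNA and 0.04 in non-polysomal RNA. The polysomal changes are therefore also given relative to the median of all probes, and signs that turn with the scaling are named. All 12 fibroblast and preadipocyte markers had a probe well above background on all arrays, so the labelled cell type was borne out by its markers. The values are signals per amount of labelled RNA of a pool, so fewer cells that express a gene and less RNA per cell cannot be told apart.

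**Figure D1:**
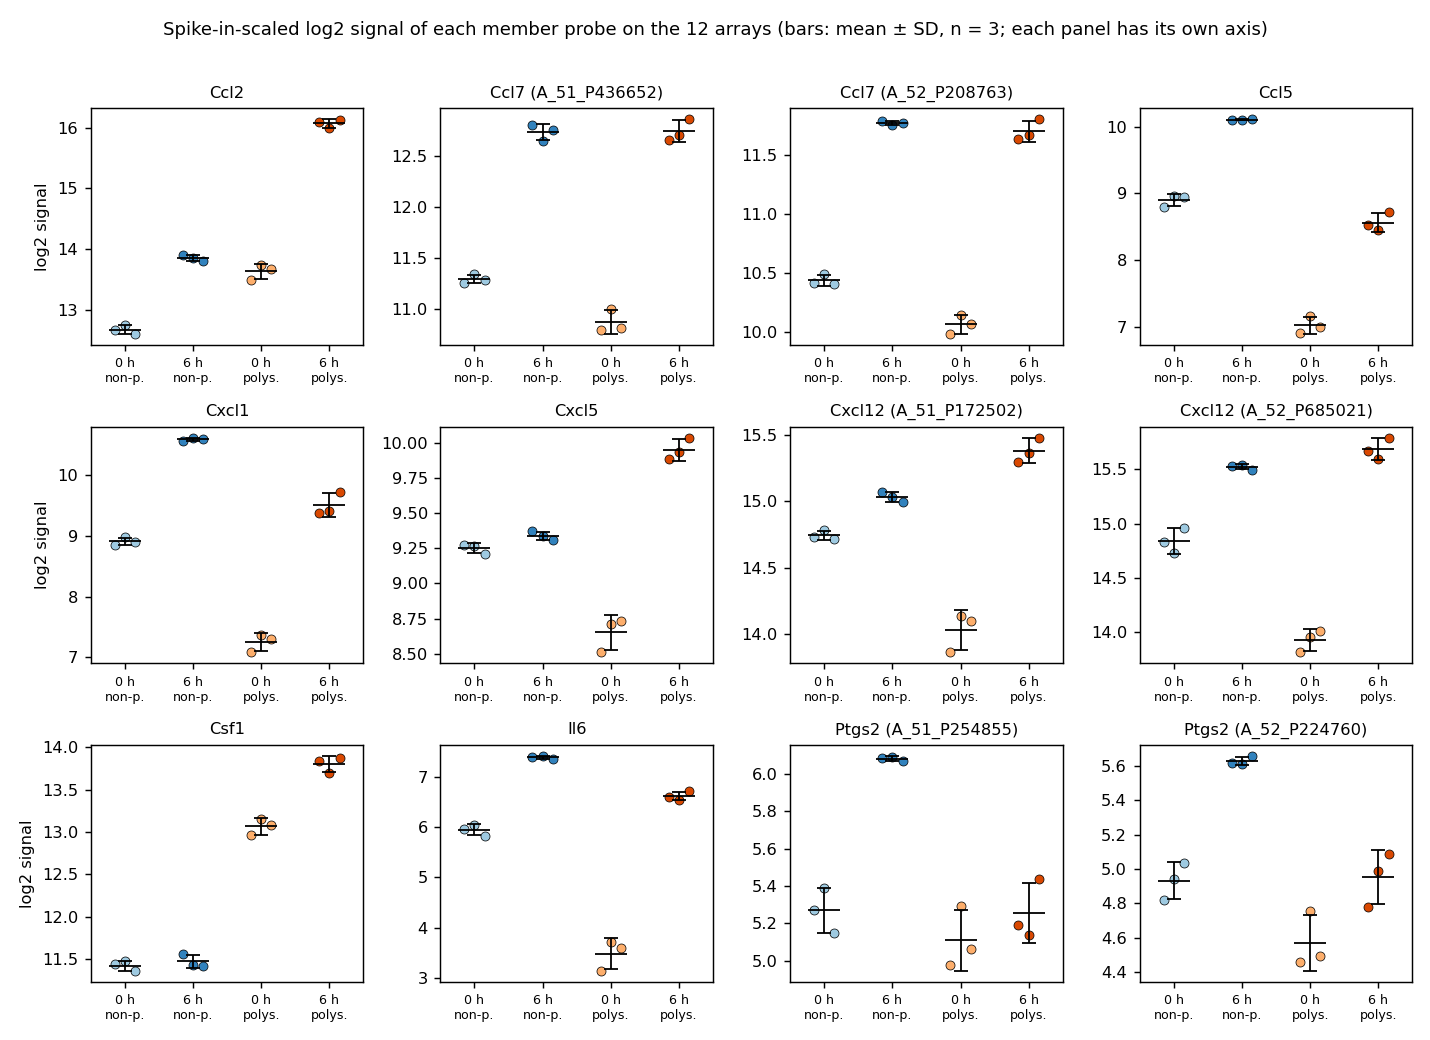
Log2 signal of each probe (vertical axis, spike-in scaling) on the 12 arrays in the 4 groups; points are arrays, bars are the mean ± SD (n = 3), and each panel has its own axis. The Il6 probe rose from a mean of 3.48 to 6.62 in the polysomal group, whereas the Ptgs2 probe A_51_P254855 had means of 5.11 and 5.26 there.

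In polysomal RNA, 9 of the 12 probes, for the 7 genes Il6, Ccl2, Cxcl1, Ccl7, Cxcl12, Ccl5 and Cxcl5, were higher at 6 h than at 0 h, and 0 were lower. The call was an adjusted p below 0.05 and a log2 difference beyond 1 in limma's moderated test (Benjamini-Hochberg adjustment over all probes), and by the same rule 19.2% of all probes were called higher and 5.00% lower. The median change of the 12 probes was 1.58, against 0.54 for all probes, and 10 of the 12 lay above the median of all probes. Relative to that median the polysomal change was 1.90 for Ccl2, 1.34 and 1.09 for the Ccl7 probes A_51_P436652 and A_52_P208763, 1.00 for Ccl5, 1.72 for Cxcl1, 0.76 for Cxcl5, and 0.81 and 1.23 for the Cxcl12 probes A_51_P172502 and A_52_P685021. The number called higher was 7 after scaling on the 75th percentile and 5 after quantile normalization, and no probe was called lower under either. Of all 41174 probes, 3640 were called higher and 4014 lower with the first, and 3204 and 3843 with the second.

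Il6 had the largest polysomal change among these genes. Its log2 signal on the 3 arrays was 3.14, 3.71 and 3.60 at 0 h and 6.60, 6.54 and 6.71 at 6 h, so every 6 h array lay well above every 0 h array. The log2 difference was 3.13 ± 0.14 (SE), an 8.77-fold rise (adjusted p = 3.19e-08), or 2.60 above the median of all probes. In the authors' own log2 values, from which no background was subtracted, the same difference was 1.78. The polysomal baseline at 0 h was dim, with processed intensities of 9.58, 14.3 and 13.6 against array medians of 26.7, 27.7 and 25.0. The size of the fold rests on this dim baseline. The dimmest spike-in transcript, at a mean log2 level of 7.82, was brighter than every Il6 and Ptgs2 signal, so the spike-ins did not cover these levels. In non-polysomal RNA Il6 read 5.96, 6.05 and 5.83 at 0 h and 7.39, 7.40 and 7.36 at 6 h, a rise of 1.44 ± 0.14 (adjusted p = 1.16e-05), again with no overlap of the arrays.

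The monocyte chemokine Ccl2 followed. Its polysomal signal was 13.50, 13.73 and 13.68 at 0 h and 16.09, 15.99 and 16.13 at 6 h. The groups did not overlap, and the difference was 2.43 ± 0.08 or 5.40-fold (adjusted p = 7.72e-09). The non-polysomal signal of Ccl2 rose from 12.67, 12.75 and 12.61 to 13.91, 13.85 and 13.80, by 1.18 ± 0.08 (adjusted p = 1.46e-06).

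Ccl7, whose gene lies with Ccl2 on chromosome 11 in GRCm38.p6 and whose product shares a receptor with that of Ccl2, had 2 probes that moved alike. Probe A_51_P436652 read 10.80, 11.01 and 10.82 in polysomal RNA at 0 h and 12.66, 12.71 and 12.87 at 6 h, and in non-polysomal RNA 11.26, 11.35 and 11.29 and then 12.80, 12.66 and 12.76. Both fractions rose without overlap, by 1.87 ± 0.09 for polysomal (adjusted p = 4.43e-08) and 1.44 ± 0.09 for non-polysomal RNA (adjusted p = 4.79e-07). Probe A_52_P208763 rose by 1.63 ± 0.07 and 1.33 ± 0.07.

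The T cell chemokine Ccl5, also on chromosome 11, read 6.91, 7.17 and 7.00 in polysomal RNA at 0 h and 8.52, 8.45 and 8.71 at 6 h, a rise of 1.54 ± 0.09 (adjusted p = 3.47e-07). Its non-polysomal signal rose from 8.80, 8.96 and 8.95 to 10.11, 10.09 and 10.11, by 1.20 ± 0.09 (adjusted p = 3.28e-06). In neither fraction did the 0 h and 6 h arrays overlap, and at both times the polysomal arrays read lower than the non-polysomal ones.

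The neutrophil chemokines Cxcl1 and Cxcl5, both on chromosome 5, differed in the non-polysomal fraction. Cxcl1 rose in polysomal RNA from 7.08, 7.37 and 7.29 to 9.37, 9.42 and 9.73, by 2.26 ± 0.11 or 4.78-fold (adjusted p = 6.57e-08). It rose in non-polysomal RNA from 8.86, 8.98 and 8.89 to 10.56, 10.62 and 10.60, by 1.68 ± 0.11 (adjusted p = 8.56e-07), the largest non-polysomal change among the 12 probes. Cxcl5 rose in polysomal RNA from 8.51, 8.71 and 8.74 to 9.88, 9.94 and 10.04, by 1.30 ± 0.08 (adjusted p = 3.00e-07). Its non-polysomal signal was 9.28, 9.27 and 9.21 at 0 h and 9.37, 9.34 and 9.31 at 6 h, a difference of 0.09 with a 95% confidence interval from -0.09 to 0.26 (adjusted p = 0.476), whose sign turned with quantile normalization and with the normexp background correction.

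Cxcl12, a chemokine that stromal cells make constitutively, was measured by 2 probes to different transcripts of the gene. Probe A_52_P685021 read 13.81, 13.95 and 14.01 in polysomal RNA at 0 h and 15.67, 15.60 and 15.79 at 6 h, a rise of 1.76 ± 0.09 (adjusted p = 8.10e-08). In non-polysomal RNA the same probe read 14.83, 14.72 and 14.96 and then 15.53, 15.54 and 15.50, a rise of 0.69 ± 0.09 (adjusted p = 0.000107) that stayed below the limit of 1. Probe A_51_P172502 rose by 1.35 ± 0.09 in polysomal RNA, and its non-polysomal change was 0.29 ± 0.09 (adjusted p = 0.0225), for which quantile normalization turned the sign to -0.056. In both fractions and for both probes the 0 h and 6 h arrays did not overlap.

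Csf1, the macrophage growth factor, was higher in polysomal RNA but stayed below the limit of 1. It read 12.96, 13.16 and 13.08 at 0 h and 13.85, 13.69 and 13.87 at 6 h, a difference of 0.74 ± 0.08 (adjusted p = 2.97e-05), which was 0.20 above the median of all probes and -0.21 with quantile normalization. Its non-polysomal signal was 11.43, 11.47 and 11.36 at 0 h and 11.56, 11.43 and 11.42 at 6 h, with overlapping arrays and a difference of 0.05 (95% confidence interval -0.14 to 0.23, adjusted p = 0.735) that turned negative with quantile normalization and with the 5 dimmest spike-ins.

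With spike-in scaling Ptgs2 was the only gene of the 9 with a larger change in the non-polysomal than in the polysomal fraction; with 75th percentile scaling Ccl7 and Ccl5 had this too. Probe A_51_P254855 read 4.98, 5.29 and 5.06 in polysomal RNA at 0 h and 5.19, 5.14 and 5.44 at 6 h, so the groups overlapped. The difference was 0.15 with a 95% confidence interval from -0.10 to 0.39 (adjusted p = 0.270), and it was -0.33 with 75th percentile scaling, -0.15 with quantile normalization and -0.26 with the 5 brightest spike-ins. Probe A_52_P224760 gave 0.38 ± 0.11 (adjusted p = 0.0117), -0.092 with 75th percentile scaling. Relative to the median of all probes the polysomal changes were -0.39 and -0.15.

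In non-polysomal RNA Ptgs2 did rise. Probe A_51_P254855 read 5.27, 5.39 and 5.15 at 0 h and 6.08, 6.09 and 6.06 at 6 h, without overlap, a rise of 0.81 ± 0.11 (adjusted p = 0.000164). Probe A_52_P224760 rose by 0.70 ± 0.11 (adjusted p = 0.000401), from 4.82, 4.94 and 5.03 to 5.62, 5.61 and 5.66. Both values were below the limit of 1 and kept their sign under each scaling. The normexp background correction gave -0.65 and -0.76, where the median of all probes was -1.19.

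Over all 12 probes, the non-polysomal fraction had 6 called higher, of Il6, Ccl2, Ccl7, Ccl5 and Cxcl1, and 0 called lower, where 8.12% of all probes were called higher and 8.11% lower. The median change was 0.99, against 0.04 for all probes.

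**Figure D2:**
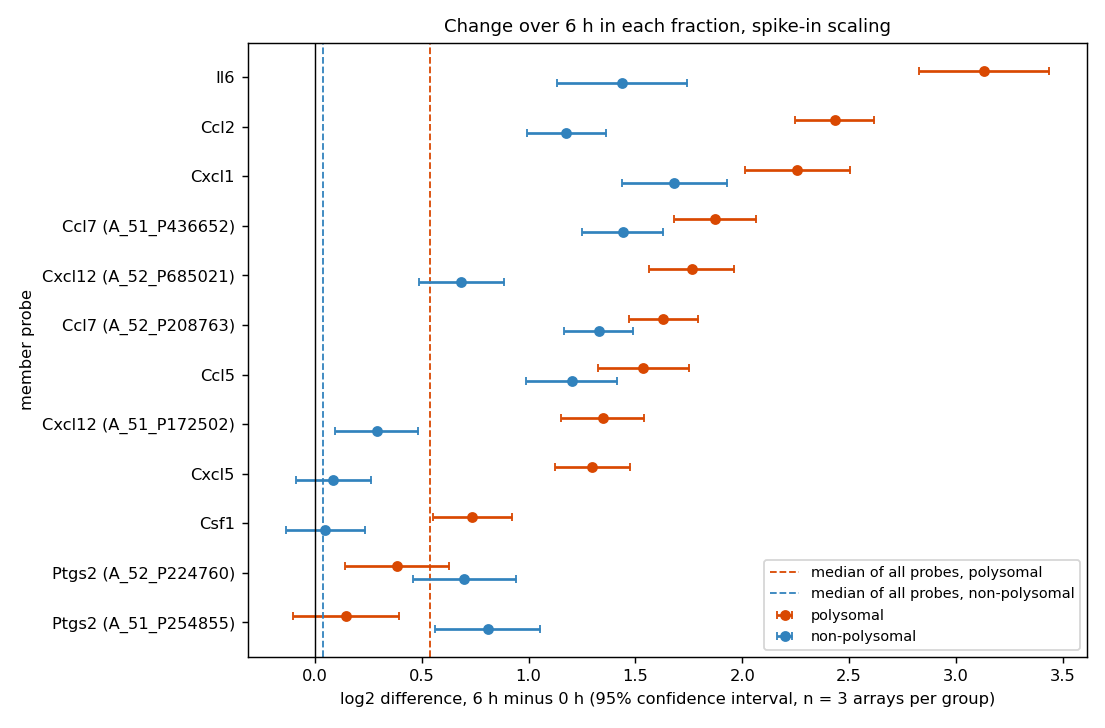
Log2 difference between 6 h and 0 h (horizontal axis) in the polysomal and the non-polysomal fraction for each probe (vertical axis); points are the limma estimates, bars are 95% confidence intervals (n = 3 arrays per group) and dashed lines are the medians of all probes, 0.54 and 0.04. Il6 lies at 3.13 and 1.44, and the Ptgs2 probe A_51_P254855 at 0.15 and 0.81.

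Leukocyte and macrophage markers, which could mark other cells in the culture, had a median change of 0.57 in polysomal and 0.11 in non-polysomal RNA, close to the medians of all probes, while some of them rose. Of 17 such probes 7 were called higher in polysomal RNA and 0 lower, and 4 and 0 in non-polysomal RNA. Over all probes 19.2% were called higher and 5.00% lower in polysomal RNA, and 8.12% and 8.11% in non-polysomal RNA. With 75th percentile scaling 3 of the 17 were called higher in polysomal RNA and 0 lower. Of the 7, 1, for Fcgr1, was well above background on no polysomal array. The summed signal of the 17 probes was 1252 to 1487 on the 0 h and 3767 to 3876 on the 6 h polysomal arrays. On the non-polysomal arrays it was 685 to 785 and then 1758 to 1905. A sum follows the brightest probes most, here that of Cd14, and so need not follow the median marker. The endotoxin coreceptor Cd14 went from a mean log2 signal of 9.65 to 11.22 in polysomal RNA, a rise of 1.57, and S100a8, an antimicrobial protein of neutrophils, from 5.48 to 9.12, a rise of 3.64. The Csf1 receptor Csf1r rose by 1.78 and 1.36 at 2 probes and gave -0.92 (adjusted p = 0.523) at its probe A_52_P570471. The defining markers read otherwise: of 3 probes for the pan-leukocyte marker Ptprc none was well above background on more than 1 of the 12 arrays, nor was any for the macrophage genes Adgre1 and Fcgr1, and the probes for Itgam were so on 0. In all, 6 of the 11 marker genes had a probe well above background on all 12 arrays, and 5 of 17 probes were so on none. The part of other cells in the rise of the cytokines was not tested beyond these values.

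The M-value compares the time changes of the fractions, as polysomal minus non-polysomal at 6 h less the same difference at 0 h. It uses all 12 arrays, which the time changes above share. A probe with a high M-value gained more signal in the polysomal than in the non-polysomal pool. By the same call rule 5 of the 12 probes were higher, of Il6, Ccl2, Cxcl5 and Cxcl12, and 0 lower, where 12.1% of all probes were called higher and 1.32% lower. After quantile normalization, or with scaling on the 75th percentile or the 5 brightest spike-ins, this was 1 higher and 1 lower, and 0 were called with the normexp background correction. Over all probes the first 3 settings called 1268, 1476 and 1379 higher and 1573, 1489 and 1472 lower. With normexp these counts were 100 and 0.

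Il6 had an M-value of 1.70 ± 0.19 (adjusted p = 0.000124), Ccl2 of 1.26 ± 0.12 (adjusted p = 4.13e-05) and Cxcl5 of 1.21 ± 0.11 (adjusted p = 3.77e-05). The Cxcl12 probes A_52_P685021 and A_51_P172502 had 1.08 ± 0.12 and 1.06 ± 0.12, and every one of these M-values was above 0 on each of the 3 slides. The median M-value of all probes was 0.49, so relative to it these 5 were higher by 1.21, 0.77, 0.73, 0.59 and 0.57. Csf1 had 0.69 ± 0.12 (adjusted p = 0.00134, 0.0508 without slide 3, and a value of -0.066 with quantile normalization) and Cxcl1 0.58 ± 0.15 (adjusted p = 0.0161, and 0.0774 to 0.114 without any 1 slide).

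Ccl7 and Ccl5 had smaller M-values, which turned negative with 75th percentile scaling. Ccl7 probe A_51_P436652 had 0.43 ± 0.12 (adjusted p = 0.0192) and A_52_P208763 0.30 ± 0.10 (adjusted p = 0.0433), and these were -0.0087 and -0.14 with 75th percentile scaling. Without any 1 slide the adjusted p of Ccl7 was 0.0782 to 0.166 at the first and 0.154 to 0.222 at the second probe. Ccl5 had 0.33 ± 0.13 (adjusted p = 0.0776) and -0.11 with that scaling. All 3 lay below the median of all probes.

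Ptgs2 had the lowest M-values of the 12 probes. Probe A_51_P254855 had -0.66 ± 0.16 (adjusted p = 0.00818), below 0 on all 3 slides, with -0.85 as the lowest and -0.54 as the highest value on a slide, or -1.15 relative to the median of all probes. Probe A_52_P224760 had -0.32 ± 0.15 (adjusted p = 0.127), which turned to 0.14 with the 5 dimmest spike-ins and to 0.018 in the authors' log2 values. Under the normexp background correction both probes turned positive, to 2.56 and 2.84. The median M-value of all probes was 3.20 with that correction, so both stayed below it. Leaving out any 1 of the 3 slides raised the adjusted p of probe A_51_P254855 to between 0.0524 and 0.0796.

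The polysomal signal of each probe was also compared with its non-polysomal signal at each time. These are signals per amount of labelled RNA of a pool, so a difference of 0 is not an even split of the mRNA. At 0 h, 1 of the 12 probes, for Csf1, was called higher in the polysomal than in the non-polysomal pool, and 3, for Il6, Ccl5 and Cxcl1, lower, where 27.3% of all probes were called higher and 9.83% lower. At 6 h, 2 probes, for Csf1 and Ccl2, were called higher and 2, for Ccl5 and Cxcl1, lower, where 37.3% of all probes were called higher and 6.42% lower. The level of the pools against each other rests on the scaling. With 75th percentile scaling the calls were 0 higher and 10 lower at 0 h and 1 higher and 8 lower at 6 h. With quantile normalization 7 were lower at either time. Over all probes 75th percentile scaling called 4752 higher and 11033 lower at 0 h, and 4922 and 9419 at 6 h. Quantile normalization called 5807 of all probes lower at 0 h and 5583 at 6 h. The median over all probes was 0.15 at 0 h and 0.68 at 6 h with spike-in scaling, and -0.74 and -0.66 with 75th percentile scaling.

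Csf1 had the higher signal in the polysomal pool at both times, by 1.65 ± 0.08 at 0 h and 2.34 ± 0.08 at 6 h. This difference stayed above 0 under each alternative tried. Ccl2 lay above 0 by 0.96 ± 0.08 at 0 h and 2.21 ± 0.08 at 6 h, and its lowest value over the alternatives was 0.065 at 0 h and 0.88 at 6 h. These were the 2 genes whose difference exceeded the median of all probes at either time.

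Il6 had the lowest difference among these probes before induction, -2.46 ± 0.14 at 0 h, with the dim polysomal signal described above. At 6 h its difference was -0.77 ± 0.14. The normexp background correction turned the sign at 6 h to 0.94, where the median of all probes was 2.27. Ccl5 lay at -1.88 ± 0.09 and -1.54 ± 0.09 and Cxcl1 at -1.66 ± 0.11 and -1.08 ± 0.11, below 0 on all 3 slides at both times and under each alternative. Cxcl5 changed sign with spike-in scaling, from -0.60 ± 0.08 at 0 h to 0.61 ± 0.08 at 6 h. Its value at 6 h was -0.72 with 75th percentile scaling and -0.74 after quantile normalization. The Cxcl12 probes A_52_P685021 and A_51_P172502 went from -0.91 and -0.71 to 0.16 (adjusted p = 0.122) and 0.35, the latter values turning to -1.17 and -0.99 with 75th percentile scaling.

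With spike-in scaling Ccl7 had similar signals in both pools at 6 h. Its probes A_51_P436652 and A_52_P208763 gave -0.42 and -0.37 at 0 h. At 6 h they gave 0.0082 (95% confidence interval -0.18 to 0.20) and -0.069 (-0.23 to 0.092). The 6 h values were -1.33 and -1.40 with 75th percentile scaling, and -1.26 and -1.40 with quantile normalization. The second probe turned positive with the 5 dimmest spike-ins, to 0.31. Ptgs2 went from -0.16 ± 0.11 to -0.82 ± 0.11 at probe A_51_P254855 and from -0.36 ± 0.11 to -0.68 ± 0.11 at A_52_P224760. The Ptgs2 values at 6 h turned positive with the normexp background correction, to 1.48 and 1.61. With that correction the median of all probes was 2.27.

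**Figure D3:**
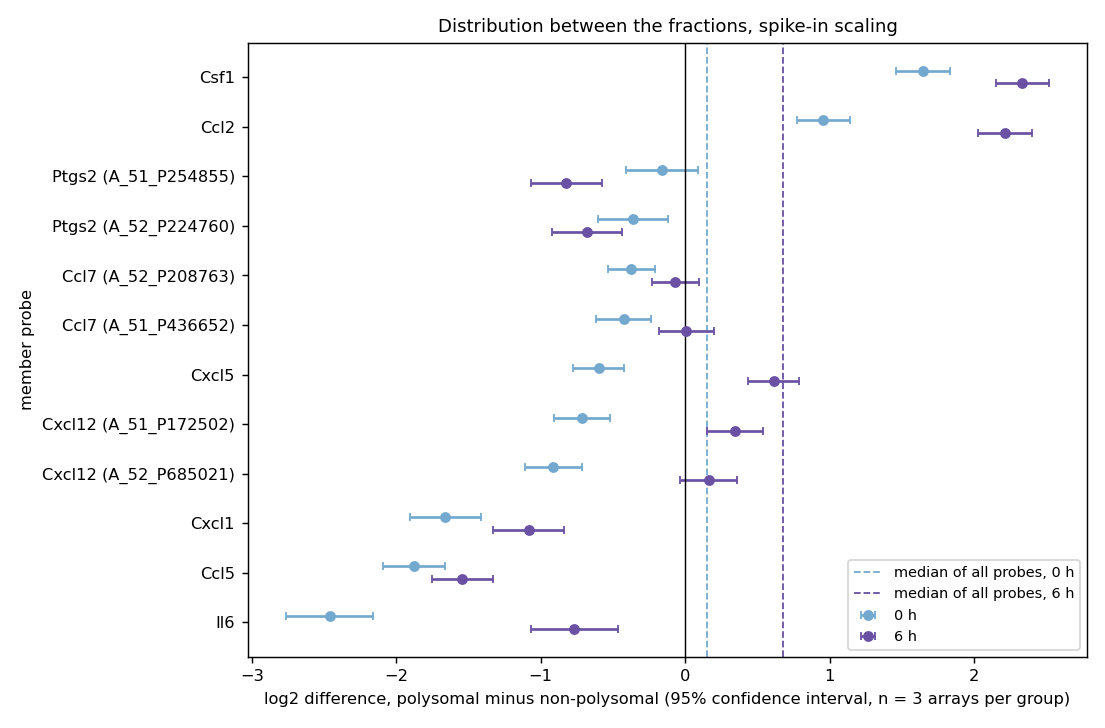
Log2 difference between the polysomal and the non-polysomal pool (horizontal axis) at 0 h and at 6 h for each probe (vertical axis); points are the limma estimates, bars are 95% confidence intervals (n = 3 arrays per group) and dashed lines are the medians of all probes, 0.15 and 0.68, under spike-in scaling. Csf1 lies at 1.65 and 2.34, Il6 at -2.46 and -0.77.

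The size of the polysomal change depended on the processing. Il6 ranged from 1.78 to 3.53 over all alternatives, Ccl2 from 1.44 to 2.83 and Cxcl1 from 1.77 to 2.66, each above 0 throughout, although the adjusted p of Il6 was 0.0838 with the normexp background correction. The range was 1.16 to 2.27 for Ccl7 probe A_51_P436652, 1.06 to 1.94 for Ccl5 and 0.77 to 1.70 for Cxcl5. Those 3 probes passed the adjusted p under each alternative, and Cxcl5 was not always beyond 1. Cxcl12 probe A_51_P172502 ranged from 0.28 to 1.75, and Csf1 from -0.21 to 1.14.

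**Figure D4:**
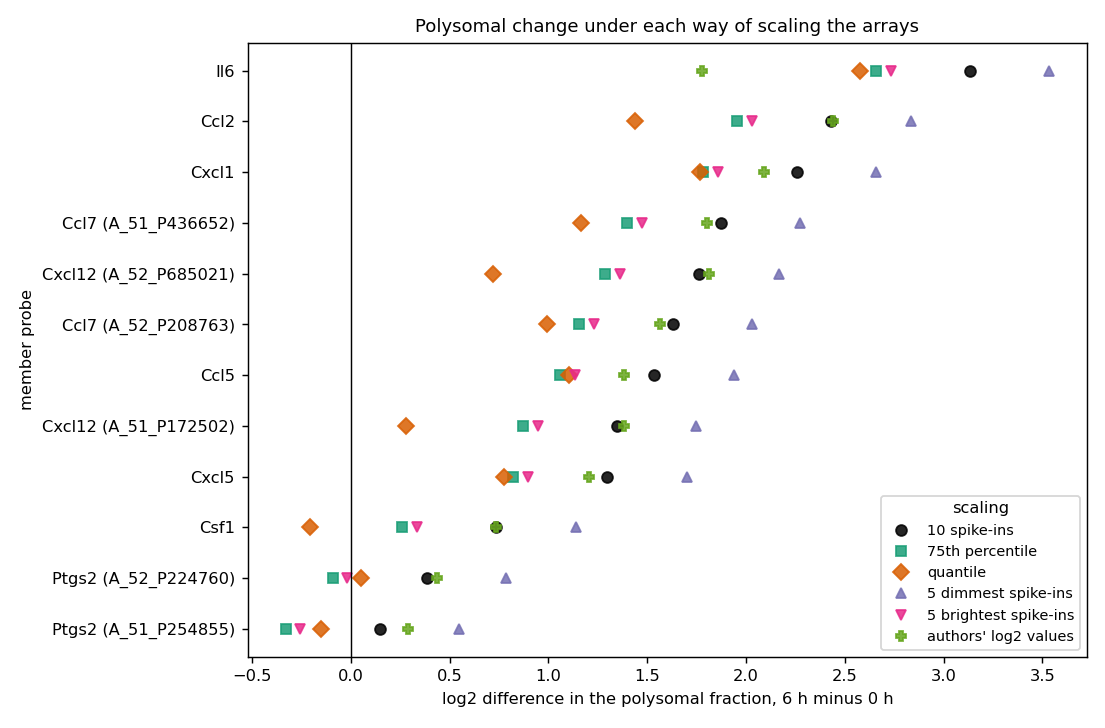
Log2 difference between 6 h and 0 h in polysomal RNA (horizontal axis) for each probe (vertical axis) under 6 ways to scale the arrays, one symbol each. All 9 probes of Il6, Ccl2, Cxcl1, Ccl7, Cxcl12, Ccl5 and Cxcl5 lie above 0 throughout, whereas the Ptgs2 probe A_51_P254855 lies at 0.15 with 10 spike-ins and at -0.33 with 75th percentile scaling.

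Other chemokines, in 33 probes of 28 genes, had 10 called higher and 1 lower in polysomal RNA, with a median of 0.80, and 3 higher and 1 lower with 75th percentile scaling. Of the 10, 3 were well above background on no polysomal array. For this list and those below, the shares over all probes in polysomal RNA were 19.2% higher and 5.00% lower. With 75th percentile scaling 3640 of all 41174 probes were called higher and 4014 lower. In non-polysomal RNA the shares with spike-in scaling were 8.12% and 8.11%. The membrane-bound chemokine Cx3cl1 rose by 2.45 ± 0.08 (adjusted p = 6.58e-09) and Ccl17, which draws T helper cells, by 1.78 ± 0.07. Cxcl13, a B cell chemokine, was not well above background on any 0 h array and was so on all 3 polysomal arrays at 6 h, at least 3.17-fold higher (adjusted p = 6.56e-05). Cxcl10, an interferon-induced chemokine, fell by 2.20 on the log2 scale (adjusted p = 5.29e-07), was well above background on 2 of the 3 polysomal arrays at 6 h, and was the 1 probe of this list called lower.

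Other cytokines and growth factors, in 38 probes of 28 genes, had 11 called higher and 2 lower in polysomal RNA, with a median of 0.56, and 7 higher and 3 lower with 75th percentile scaling. Of the 11, 3 were well above background on no polysomal array. Il11, which belongs with Il6 and Lif to the cytokines that signal through Il6st, rose by 6.77 ± 0.13 in polysomal RNA (adjusted p = 4.08e-10) and by 5.50 in non-polysomal RNA. Clcf1, another cytokine of that family, rose by 5.36 ± 0.08 and 4.50, and the angiogenic factor Vegfa by 4.02 ± 0.09 and 2.12. Grem1, an antagonist of bone morphogenetic proteins, fell by 1.71 on the log2 scale in polysomal RNA.

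Among the receptors of the ligands and prostaglandins, 5 of 33 probes were called higher and 3 lower in polysomal RNA, against 19.2% and 5.00% of all probes. With 75th percentile scaling 3 were called higher and 3 lower. Ackr3, the scavenging receptor of Cxcl12, rose by 3.90 ± 0.10 in the polysomal (adjusted p = 2.19e-09) and by 3.81 in the non-polysomal fraction, and the scavenging receptor Ackr2, which takes up inflammatory CC chemokines, rose by 2.08 ± 0.36. The 3 probes called lower were all of prostanoid receptors. The probes of Ptgir, the prostacyclin receptor, disagreed: A_51_P202408 fell by 2.71 on the log2 scale (adjusted p = 6.16e-09) and A_52_P681368 gave 0.65 (adjusted p = 0.0142), both well above background on all arrays. Ptger3, a receptor of prostaglandin E, was well above background on all 0 h arrays and on no 6 h array, so it was at least 4.22-fold lower in polysomal RNA at 6 h (adjusted p = 2.87e-05) at probe A_51_P520718, its other probe giving -0.57 (adjusted p = 0.243), and Ptger4, which was chosen after its values were seen since it completes the count, at least 1.88-fold lower.

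Enzymes and carriers of the prostaglandins, other than Ptgs2, had 12 of 22 probes called higher and 0 lower in polysomal RNA, with a median of 1.04, and 5 higher and 2 lower with 75th percentile scaling. Of the 12, 1, for the phospholipase Pla2g5, was well above background on no polysomal array and has no fold there. Ptges, which makes prostaglandin E from the product of Ptgs2, rose by 2.27 ± 0.09 (adjusted p = 1.90e-08). The prostaglandin carrier Slco2a1 rose by 2.62 ± 0.10 and the aldose reductase Akr1b3, which can make prostaglandin F, by 1.89 ± 0.07.

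The NF-kB pathway had 7 of 36 probes called higher and 1 lower in polysomal RNA, with a median of 0.41, and 3 higher and 3 lower with 75th percentile scaling, where the median was -0.069. The share called higher was close to that of all probes, and in non-polysomal RNA 2 were higher and 7 lower. Traf1, an adaptor of tumor necrosis factor receptors, rose by 3.59 ± 0.11 (adjusted p = 4.12e-09). The inhibitors Nfkbia and Nfkbib rose by 1.65 ± 0.10 and 1.61 ± 0.07, and the coregulator Bcl3 by 1.18 ± 0.07, each above 0 in polysomal RNA under every scaling. The subunits Relb and Nfkb2, which were chosen after their values were seen, gave -0.52 and -0.50 in polysomal RNA and fell by 1.41 and 1.83 in non-polysomal RNA, and the Rela probe A_51_P385993 gave -0.39 and -0.99.

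A list of genes that glucocorticoids are known to induce also held the gene of their receptor, Nr3c1, which is not such a gene. This list had 18 of 27 probes called higher and 3 lower in polysomal RNA, with a median of 2.16, and 16 and 4 in non-polysomal RNA. With 75th percentile scaling 18 were called higher and 5 lower in polysomal RNA, with a median of 1.68. Dusp1, a phosphatase of MAP kinases, rose by 4.75 ± 0.07 (adjusted p = 1.91e-10), Errfi1, a feedback inhibitor of EGF receptors, by 4.74 ± 0.08, the metallothionein Mt2 by 4.74 ± 0.09 and the immunophilin Fkbp5 by 4.53 ± 0.12. All 3 probes called lower with spike-in scaling were of the glucocorticoid receptor Nr3c1, named after its values were seen. Their log2 differences were -1.65, -1.58 and -1.43. The 4 called lower in non-polysomal RNA were of Nr3c1 too. Of the 18 probes called higher, 1 was well above background on no polysomal array.

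Mature adipocyte markers had 4 of 15 probes called higher and 2 lower in polysomal RNA, where 19.2% and 5.00% of all probes were so called. The fibroblast and preadipocyte markers had 3 of 19 higher and 1 lower. Of the 4 adipocyte probes called higher, 2 were well above background on no polysomal array. With 75th percentile scaling these were 1 and 3, and 0 and 2. The lipid droplet protein Cidec rose by 1.53 ± 0.11 and the fatty acid carrier Fabp4 by 1.15 ± 0.09 at the probe called (0.97 and 0.75 at its others), while the lipase Lipe fell by 1.14. Among the fibroblast markers Dlk1, Thy1 and Vim gave 1.25, 1.23 and 1.11 (-0.077, -0.031 and 0.13 with quantile normalization), and a second Thy1 probe gave 0.78. The growth factor receptor Pdgfra fell by 1.26 at probe A_51_P345649 and gave -0.028 (adjusted p = 0.893) at A_52_P264283.

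**Figure D5:**
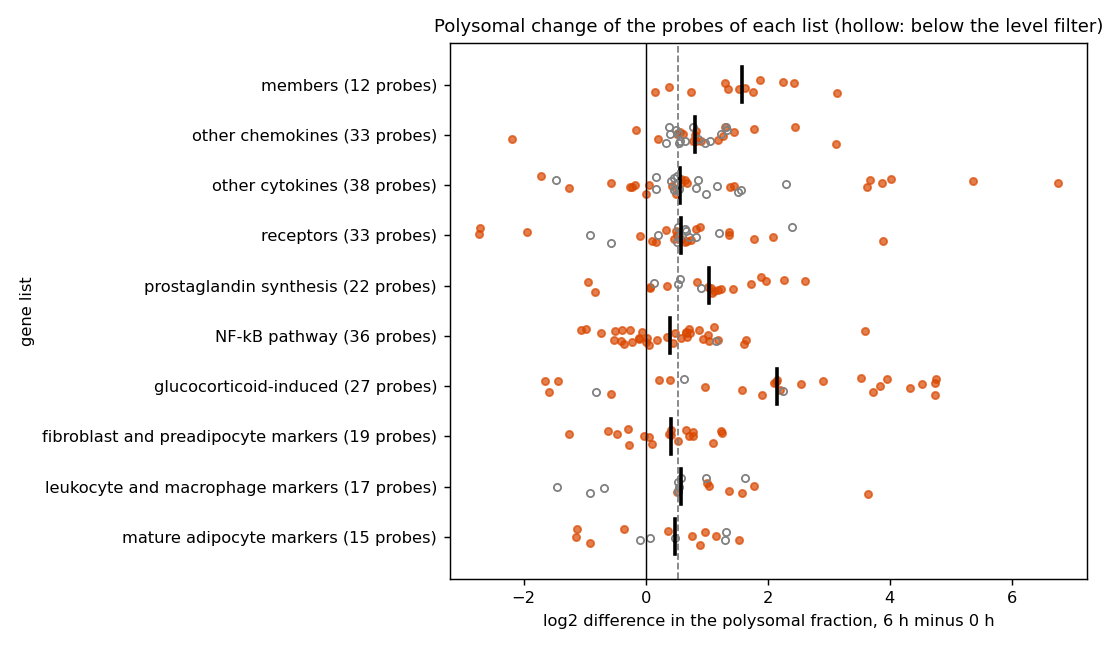
Log2 difference between 6 h and 0 h in polysomal RNA (horizontal axis) for the probes of each gene list (vertical axis); filled points are probes that exceeded background clearly on all 3 arrays of 1 or more groups, hollow points are the others, short bars are list medians over all probes shown and the dashed line is the median of all probes, 0.54. The 12 probes of the cytokine, chemokine and Ptgs2 genes (members) have a median of 1.58 and none lies below 0, and the glucocorticoid-induced list has a median of 2.16.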

How the data were processed

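RNA of polysomal and non-polysomal pools was amplified, labelled with Cy3 and hybridised to one-colour Agilent mouse arrays, with spike-in RNA added to each pool. The authors deposited scanner output of Feature Extraction 10.7.1.1, whose intensity columns hold the processed, background-subtracted signal per spot, not normalized between arrays, and log2 values per probe, normalized on the spike-ins per their methods, which equal the log2 median pixel intensity plus a constant per array. The genome build of the probes in the file headers differs from that of the gene table, so only chromosome names are given from the latter, and the promoter windows carry their own build.

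Intensities were taken to log2, outlier spots were left out (94 to 221 per array, of 45018), the spots of a probe were averaged, and each array was scaled by the mean of 10 spike-in transcripts. The 1639 control spots were not tested. The 5 comparisons were fitted over the 12 arrays with limma 3.58.1 in R 4.3.3 (lmFit, eBayes, Benjamini-Hochberg over all probes); a call needed an adjusted p below 0.05 and a log2 difference beyond 1. Files were read with data.table (version 1.17.8). The steps were tested on simulated data.

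Accessions were paired with symbols through RefSeq tables; 26690 of 41174 probes had a symbol. Named were all probes of the 10 genes and, of each other list, up to 4 genes with the largest polysomal change among those called and clearly above background on all 3 arrays of some group. The genes and lists were chosen with earlier results of these data known. Alternatives were 75th percentile scaling, quantile normalization, the deposited log2 values, normexp (on median signals, since the files hold no mean signal), other filters and fits, leaving out arrays, and, added after seeing the data, the 5 dimmest or brightest spike-ins. The number of arrays limits the precision. Each of 3 slides held 1 replicate of each group; the numbers were checked for pairing by correlating deviations from group means. The value of 1 marker gene is not reported here.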

Additional observations from a re-analysis of the deposited data

Results flagged for a closer look

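In 10 of the 12 probes the change from 0 h to 6 h differed between the polysomal and the non-polysomal fraction by a test of that difference, the M-value in limma at an adjusted p below 0.05. The M-value was 1.70 for Il6, 1.26 for Ccl2, 1.21 for Cxcl5, 1.08 and 1.06 for the Cxcl12 probes A_52_P685021 and A_51_P172502, 0.69 for Csf1 and 0.58 for Cxcl1. It was 0.43 and 0.30 for the Ccl7 probes A_51_P436652 and A_52_P208763, and -0.66 for the Ptgs2 probe A_51_P254855. Of these, Ccl7 turned negative with 75th percentile scaling, Csf1 with quantile normalization, and Ptgs2 positive with the normexp background correction. With that correction the median M-value of all probes was 3.20.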

How the results depend on the processing

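Over the alternatives, 1404 values kept their direction and their side of the adjusted p of 0.05. Of the others, 82 no longer passed this adjusted p, 16 newly passed it and 46 changed sign, and the cause was not tested. Of the values that left out arrays, 856 kept both and 39 no longer passed the adjusted p. With the replicate number as a block 59 kept both, and the M-value of Ccl7 probe A_52_P208763 no longer passed the adjusted p. The count called higher in polysomal RNA was again 9. Deviations of same-numbered arrays correlated at -0.097 to 0.42 (median 0.068, 4 of 18 over 0.1); these arrays share a slide as well as a number, so the block is also a block for the slide.

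Signs changed as follows, with probes in the order A_51 and A_52 for genes with a pair. With 75th percentile scaling, the polysomal change of Ptgs2 was -0.33 and -0.092, M was -0.0087 and -0.14 for Ccl7 and -0.11 for Ccl5, and polysomal against non-polysomal at 6 h was -1.33 for Ccl7 A_51_P436652, -0.72 for Cxcl5 and -0.99 and -1.17 for Cxcl12. With quantile normalization, the polysomal change was -0.21 for Csf1 and -0.15 for Ptgs2 A_51_P254855, the non-polysomal change -0.002 for Cxcl5, -0.056 for Cxcl12 A_51_P172502 and -0.14 for Csf1, M -0.12 for Ccl7 A_52_P208763 and -0.066 for Csf1, and the pools at 6 h -1.26 for Ccl7 A_51_P436652, -0.74 for Cxcl5 and -0.64 and -0.77 for Cxcl12. In the deposited log2 values M was 0.018 for Ptgs2 A_52_P224760. The medians of all probes with normexp were -1.19 for the non-polysomal change, 3.20 for M and 2.27 for the pools at 6 h. With normexp, the non-polysomal change was -0.13 for Cxcl5, -0.033 for Il6 and -0.65 and -0.76 for Ptgs2, M was 2.56 and 2.84 for Ptgs2, and the pools at 6 h gave -0.080 for Ccl7 A_51_P436652, 0.94 for Il6 and 1.48 and 1.61 for Ptgs2. With the 5 dimmest spike-ins, the non-polysomal change of Csf1 was -0.0035, M 0.14 for Ptgs2 A_52_P224760 and the pools at 6 h 0.31 for Ccl7 A_52_P208763. With the 5 brightest, the polysomal change of Ptgs2 was -0.26 and -0.018, M -0.021 and -0.15 for Ccl7 and -0.12 for Ccl5, and the pools at 6 h -0.37 for Ccl7 A_51_P436652 and -0.031 and -0.21 for Cxcl12. Leaving out arrays turned only Ccl7 A_51_P436652 between the pools at 6 h, where the values ran from -0.051 to 0.082.

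Of the counts of probes called, the 9 higher in polysomal RNA were 5 with quantile normalization, and the 6 higher in non-polysomal RNA were 3 with normexp. Over all probes these 2 settings called 3204 and 736 higher. The 5 higher by M were 1 with 75th percentile scaling, quantile normalization and the 5 brightest spike-ins and 0 with normexp, and the 0 lower by M were 1 with each of the first 3. Between the pools at 0 h, the 1 higher was 0 with 75th percentile scaling, 2 with normexp and the 5 brightest spike-ins, and 1 to 2 when arrays were left out, with 2 without the 0 h polysomal array of replicate 1 and without all of replicate 1, and the 3 lower were 10 with 75th percentile scaling and 7 after quantile normalization. At 6 h, the 2 higher were 1 after 75th percentile scaling or quantile normalization, and the 2 lower were 8, 7, 0, 1 and 5 with 75th percentile scaling, quantile normalization, normexp and the 5 dimmest and 5 brightest spike-ins.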

Other observations

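The genes whose signal over the 12 arrays was most like that of Il6 and Ptgs2 were looked up after the values were seen, among probes with a symbol that were well above background on every array of at least 1 group. For Il6 (19447 candidates) these were Gabarap, with a Pearson r of 0.997, and St3gal4, Rps25, Nrn1 and Cdc42se1, with r of 0.996 each. For Ptgs2 probe A_51_P254855 (19446 candidates) they were Nktr (0.975), Eaf2 (0.967), M1ap (0.964), Cul1 (0.959) and Zfp267 (0.956). The arrays fall into 4 groups and share the scaling, so these values are a description without a test.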
